A study of Homo sapiens with 80 samples.

Results

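The late phase of a low purity cardiac differentiation was followed in 7 wells of WTC11, a human induced pluripotent stem cell line: 4 wells harvested on day 8 and 3 wells harvested on day 16. They are 7 of the 80 samples of the series and were chosen by their labels. Of 43388 genes in the deposited table, 19551 reached at least 1 TPM (a transcript level scaled by gene length and sequencing depth) in at least 3 of these wells and were tested. All of these wells carried the same genotype and protocol: CHIR99021, an activator of WNT signalling, was given at the start, IWP2, an inhibitor of WNT secretion, on day 2, and insulin was added with the B27 supplement from day 6 onwards. Purity was scored on day 16 by flow cytometry for cardiac troponin T, and its percentages are not analysed here. Low purity wells came from a single differentiation at passage 69, and the high purity wells used for comparison (3 on day 8, 3 on day 16) from another at passage 52. An effect of purity cannot be told apart from one of passage or of the differentiation run, and p-values measure only the spread between wells of a differentiation.

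By day 8 of this protocol cardiac mesoderm has formed beating cardiomyocytes, and the days that follow are a phase of early maturation. Cardiomyocytes then exchange fetal for adult contractile protein isoforms and leave the cell cycle. Cells that did not become cardiomyocytes can take on stromal, epicardial, smooth muscle, endothelial or endodermal fates. RNA of the whole well was sequenced, so fewer cells of a type and less RNA per cell cannot be told apart in any value given here.

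The 7 wells held 9700005 to 15521129 reads each, recovered from the deposited TPM, and depth did not differ beyond the spread between wells (two-sided exact permutation p = 0.4, where 0.0571 is the smallest value that 4 against 3 wells can give). Each well was nearest to a well of its own day. RNR2, a mitochondrial large ribosomal RNA, took 17.1 to 20.8% of TPM on day 8 and 22.4 to 23.7% on day 16, so less TPM was left for all other genes on day 16. Fold changes are therefore given on TPM scaled by TMM (trimmed mean of M values), as differences of log2(scaled TPM + 1), while levels of single wells are the deposited TPM. The day 16 wells were not equally alike. The chi-square per degree of freedom of their reads was 2.71 between wells 2 and 3 but 10.9 and 9.4 between well 1 and these wells. Well 1 was also the deepest of the day. By genes at least 2-fold above and below the mean of the other day 16 wells it did not stand out. These were 423 and 463 in well 1, 358 and 447 in well 2, and 459 and 396 in well 3. Well 1 was the lowest of the day in the median change of thick filament genes (0.16, against 0.90 and 0.69 in wells 2 and 3) and of endoderm and liver genes (-0.91, against -0.24 and -0.49). Where a call or a list count named here was lost without it, the value without it is given.

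From day 8 to day 16, 880 genes rose (4.5% of those tested) and 719 fell (3.68%), at an adjusted p under 0.05 and a log2 change of at least 1. The median change of all tested genes was -0.018. Day 8 and day 16 wells did not overlap in 1497 of the 1599 called genes, and in 48.5% of all tested genes. Overlap of wells, here and below, was read on deposited TPM without scaling. On it, all day 16 wells lay below all day 8 wells in 36.6% of tested genes. Without any scaling the median moved to -0.21, and the calls became 647 higher and 1134 lower. All 1366 genes called both ways had the same direction, but a shift of this size could not carry a gene past both fold limits. Of the called genes, 1107 were protein-coding, and 121 had at most 10 reads in each of the 7 wells, so their levels are coarse.

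Several of the genes that rose most encode secreted proteins of matrix, complement or signalling. SFRP2, a secreted modulator of WNT signalling on chromosome 4 (153780591 to 153789083 in GRCh38.p14, as all positions here), stood at 0.988, 1.26, 0.752 and 0.555 TPM in day 8 wells 1 to 4 and at 134, 52.5 and 47.2 TPM in day 16 wells 1 to 3. The groups lay far apart, and well 1 was the highest of day 16. Its log2 change was 5.38 (SE 0.31, adjusted p = 2.05e-18, limma). CFI, the protease that inactivates complement C3b, rose from 3.04 ± 1.08 TPM (SD, n = 4) to 112 ± 31.8 TPM (SD, n = 3), a log2 change of 5.00 (SE 0.18). MGP, an inhibitor of calcification in the extracellular matrix, rose from 9.35 ± 1.23 to 152 ± 17.3 TPM, or 4.10 on the log2 scale (SE 0.23). The others among the 12 protein-coding genes with the largest rise were TMEM176B, SPHKAP, ALDH1A2, AHSG, C3, SCG2, NPR3, TMEM176A and ITLN1, with log2 changes from 3.71 for ITLN1 to 4.92 for TMEM176B. SCG2, a precursor of neuroendocrine peptides, was at 2.57 to 4.44 TPM on day 8 and at 58.1 to 71.4 TPM on day 16. NPR3, the clearance receptor of natriuretic peptides, was at 0.672 to 1.25 TPM and then at 20.4 to 25.3 TPM. Wells of the 2 days overlapped in none of these 12 genes, which the rule for naming them required.

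The largest fall was in LIN28A, an RNA-binding protein that blocks the maturation of let-7 microRNAs. It stood at 201, 253, 256 and 220 TPM on day 8 and at 14.6, 18.7 and 14 TPM on day 16, a log2 change of -3.58 (SE 0.09, adjusted p = 3.9e-31, limma). All day 16 wells lay far below all day 8 wells. NQO1, a quinone reductase, fell from 67.8 ± 7.76 to 6.85 ± 0.636 TPM (SD, n = 4 and 3), and SLC7A11, the cystine transporter, from 48 to 58.9 TPM down to 4.38 to 8.23 TPM. ALOX15, a lipoxygenase, fell from 76.6 ± 7 to 9.12 ± 3.56 TPM. HAS2, which makes hyaluronan, fell by 2.59 on the log2 scale from 99 to 150 TPM down to 16.9 to 17.3 TPM. The others of the 12 with the largest fall were SLN, OIT3, CMTM5, AKR1D1, SPP1, PRTG and GRPR, with log2 changes from -2.84 for SLN to -2.49 for GRPR.

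**Figure D1:**
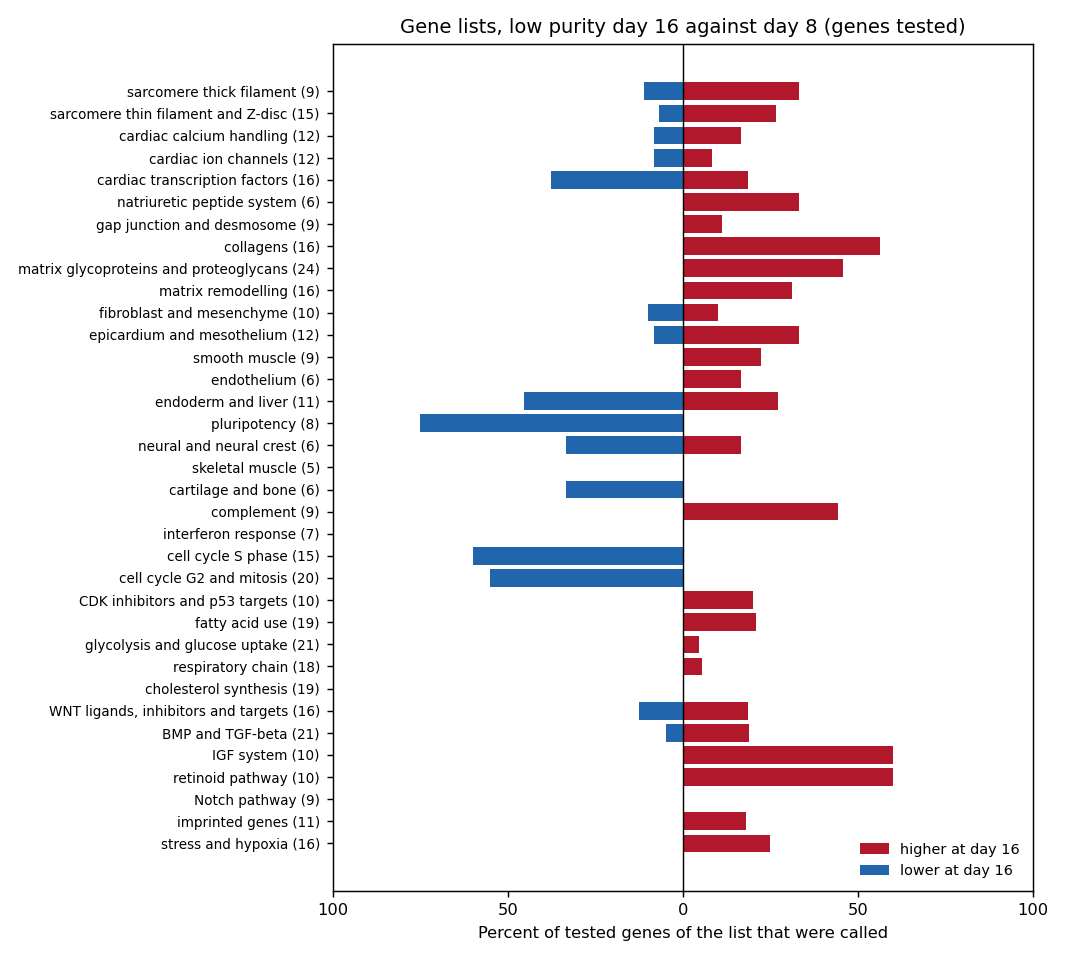
Share of the tested genes of each list that were called higher (right, red) or lower (left, blue) on day 16 than on day 8 in low purity wells; the number of tested genes is in brackets, and lists with under 5 tested genes are left out. Collagens, the IGF system and the retinoid pathway reach furthest to the right among lists with no gene called lower, and pluripotency and both cell cycle lists furthest to the left.

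Genes were also read in 39 lists of 532 genes by role, each described by its counts and median beside the 4.5% higher, 3.68% lower and median of -0.018 of all tested genes. In the plot of calls by list, calls went both ways in both sarcomere lists and in a single direction in the matrix and cell cycle lists. Of the 9 tested thick filament genes, 3 rose and 1 fell, with a median log2 change of 0.49, or 0.80 without day 16 well 1 and 0.27 without scaling. MYH7, the slow or beta myosin heavy chain that becomes the main ventricular isoform (chromosome 14, 23412740 to 23435660), was at 60.8, 126, 105 and 67.8 TPM on day 8 and at 528, 1186 and 961 TPM on day 16. Every day 16 well was above every day 8 well, with well 1 the lowest of day 16. The log2 change was 3.50 (SE 0.28, adjusted p = 3.72e-14, limma). MYH6, the alpha heavy chain of atrial and early heart muscle, lies beside it (23381987 to 23408273) and went the other way, from 829, 1440, 1273 and 848 TPM to 307, 416 and 352 TPM. Its log2 change was -1.35 (SE 0.27, adjusted p = 4.84e-05). These genes are nearly identical in parts, and how reads matching both were counted is not given in the sources used here.

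The share of MYH7 in the sum of both heavy chains does not depend on any scaling between wells. It was 7.48 ± 0.51% on day 8 (SD, n = 4), 21.7 ± 1.78% on day 10 (n = 4), 49.4 ± 2.05% on day 13 (n = 4) and 70.1 ± 5.99% on day 16 (n = 3). No value of one day overlapped that of another, and the exact permutation test of day 8 against day 16 gave 0.0571, the smallest value it can give. In high purity wells the share was 2.27 ± 0.316% on day 8 and 15.3 ± 2.75% on day 16 (SD, n = 3 each), and MYH6 was at 3259 ± 247 and 3991 ± 535 TPM.

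MYL2, the ventricular regulatory light chain, was listed at 0 in 3 day 8 wells and at 3.02 TPM in well 2, and reached 7.38, 19.8 and 12.7 TPM on day 16, a log2 change of 3.36 (SE 0.31). MYL7, its atrial counterpart, was far more abundant and rose from 863 to 1372 TPM to 1757 to 2233 TPM, by 1.13 on the log2 scale; without scaling its change was 0.90, under the limit for a call. MYL2 made up 0.632 ± 0.232% of the sum of both light chains on day 16 (SD, n = 3), so the atrial form remained the main one. The 250 bases before the RefSeq start of MYL7 are shown because they hold a CArG box (in capitals), the element bound by serum response factor at many muscle genes. Such a box was found in 2 of 6 thick filament promoters in the table and in 1.04% of 12729 promoters of tested genes. The sequence is from RefSeq (GRCh38.p14), chr7:44141333-44141582, minus strand.
MYL7: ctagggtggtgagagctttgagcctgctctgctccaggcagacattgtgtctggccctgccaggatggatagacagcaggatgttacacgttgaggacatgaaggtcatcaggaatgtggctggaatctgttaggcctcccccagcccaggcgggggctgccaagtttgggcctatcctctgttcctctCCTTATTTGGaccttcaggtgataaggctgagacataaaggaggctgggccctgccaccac

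Among 15 thin filament and Z-disc genes, 4 rose and 1 fell, with a median of 0.34 (0.12 without scaling). TNNI3, the adult cardiac troponin I, was at 22.6, 49.9, 58.7 and 30.9 TPM on day 8 and at 113, 146 and 148 TPM on day 16, with no overlap and a log2 change of 2.02 (SE 0.26). TNNI1, the fetal form, was at 181 to 293 TPM and then at 219 to 296 TPM, and did not pass the test (log2 change 0.36, adjusted p = 0.0605). The share of TNNI3 in their sum was 13.7 ± 2.87% on day 8 and 33.7 ± 0.61% on day 16 (exact permutation p = 0.0571, the smallest possible). TNNT2, the cardiac troponin T by which purity is scored, was at 1328, 1640, 1404 and 1071 TPM on day 8 and at 827, 1165 and 1227 TPM on day 16. The groups overlapped, and its change of -0.12 (SE 0.29, adjusted p = 0.779), or 0.06 without day 16 well 1, gave no call; high purity wells held 2952 ± 521 and 3375 ± 446 TPM on these days (SD, n = 3 each). TCAP and CRYAB, a titin cap and a small heat shock protein of the Z-disc, rose by 1.64 and 1.57. ACTA1, skeletal alpha-actin, fell from 174 to 284 TPM down to 66.4 to 79.5 TPM.

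**Figure D2:**
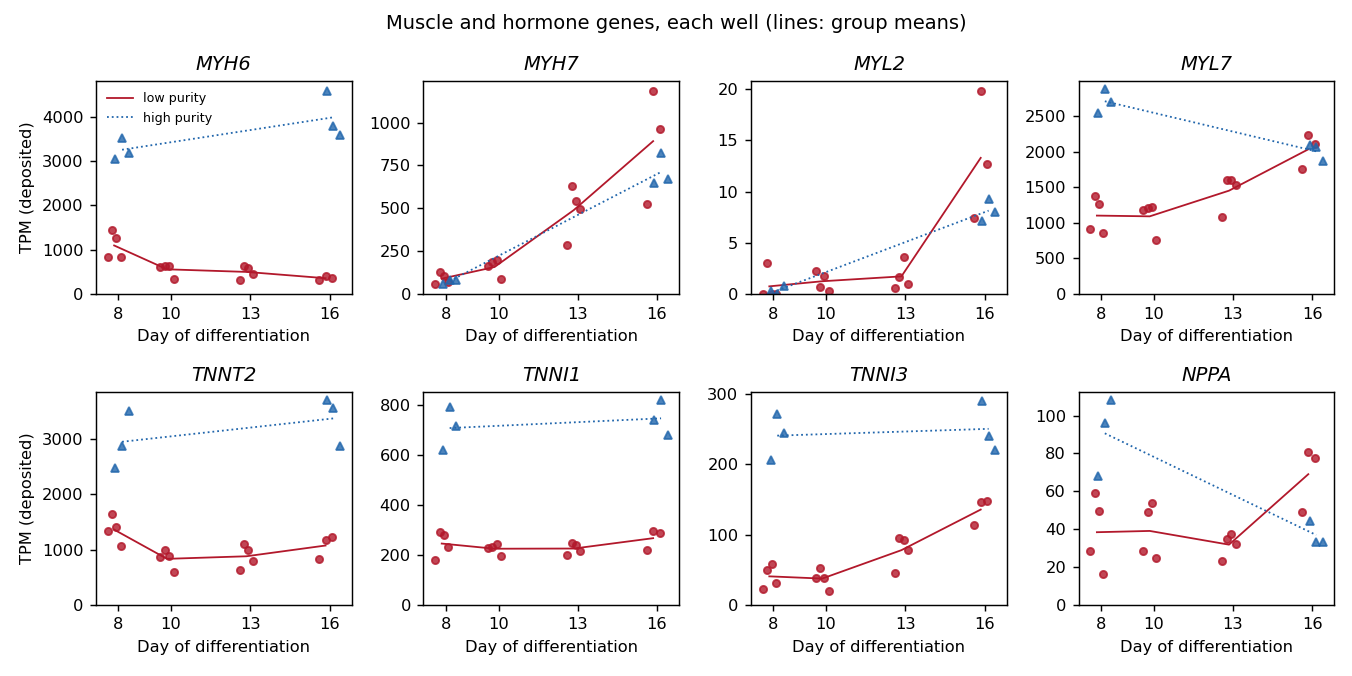
Deposited TPM of 8 muscle and hormone genes against day of differentiation in each low purity well (red circles) and each high purity well of days 8 and 16 (blue triangles); lines join group means, dotted for high purity, which is drawn on days 8 and 16 only. In low purity wells MYH6 falls from 829 to 1440 TPM on day 8 to 307 to 416 TPM on day 16 while MYH7 climbs to 528 to 1186 TPM.

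Of 12 calcium handling genes, PLN and CASQ2 rose and SLN fell. PLN, the inhibitor of the calcium pump of the sarcoplasmic reticulum, went from 144 to 231 TPM to 453 to 773 TPM (log2 change 2.01, SE 0.24). SLN, the atrial inhibitor of the same pump, went from 22.3 to 28.2 TPM down to 0.859 to 3.74 TPM. Of 12 ion channel genes, 1 rose and 1 fell, and 2 rose without day 16 well 1 or 3 or day 8 well 2 or 3. KCNA5, a potassium channel of atrial muscle, rose by 1.24, and KCNJ3, a subunit of the acetylcholine-gated potassium channel, fell by 2.18 on the log2 scale, from 65 to 79.9 TPM to 9.46 to 18.2 TPM. In the natriuretic peptide system NPPA was called at 1.17 (adjusted p = 0.0202, limma), but its wells overlapped. The call was lost without day 8 well 4 (0.84), day 16 well 2 (1.04) or day 16 well 3 (1.08). It was also lost without scaling (0.95), with a pseudocount of 0.1 (1.2) and in a fit of the compared wells only (1.17). NPPB, at 201 to 320 TPM and then 124 to 182 TPM, did not pass the test (-0.43, adjusted p = 0.225).

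Among 16 cardiac transcription factors, 6 fell and 3 rose (3 and 2 with a pseudocount of 5 in place of 1). HEY2 and IRX4, which repress atrial genes in ventricular muscle, rose by 1.66 and 1.57, HEY2 from 17.2 to 20.7 TPM to 37.3 to 62.8 TPM. NR2F1, an orphan receptor of atrial muscle, fell by 1.62 on the log2 scale to 1.41 to 2.43 TPM. HAND1, a factor of early heart mesoderm, fell from 428 to 482 TPM to 125 to 134 TPM, and TBX3, a factor of the conduction system, from 22.3 to 41.8 TPM to 6.47 to 11.4 TPM. SHOX2, the other factor that rose, stayed at or under 3.77 TPM and was no longer called without day 16 well 1 (0.82). NKX2-5, the general cardiac factor, was at 26.9 to 37.6 TPM and then at 19 to 38.1 TPM, with a change of 0.12 (adjusted p = 0.775) that turned to -0.10 without scaling. Without day 16 well 1 the list had 4 lower and 2 higher calls.

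No gene of 3 extracellular matrix lists was called lower by limma at the fold limit, while at the adjusted p alone 2 collagens, 2 glycoproteins and 1 remodelling gene were lower. In the same order, 14 of 16, 15 of 24 and 11 of 16 were higher at the adjusted p alone. Of all tested genes, 20.9% were lower and 20% higher by this measure. Of 16 collagens, 9 rose and 0 fell, with a median log2 change of 1.10 (1.10, 1.06 and 0.97 in the 3 day 16 wells). COL3A1, a fibrillar collagen of soft tissue (chromosome 2, 188974373 to 189012746), was at 1750, 1569, 1568 and 1952 TPM on day 8 and at 7295, 5216 and 5195 TPM on day 16. All day 16 wells were above all day 8 wells, well 1 most, and the log2 change was 2.00 (SE 0.25, adjusted p = 7.46e-09, limma). COL11A1 rose by 2.18 and COL15A1 by 2.42. COL1A1, the main fibrillar collagen, was at 1608 to 1854 TPM and then at 2226 to 3058 TPM, a change of 0.83 that was past the adjusted p (4.22e-08) and under the fold limit. Summed over the list, collagens made up 5670 to 6481 TPM on day 8 and 10669 to 14455 TPM on day 16. Without scaling, 5 of 16 collagens were called higher and the median was 0.89.

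Of 24 matrix glycoproteins and proteoglycans, 11 rose and 0 fell (median 0.80). Besides MGP they included THBS2, a thrombospondin, which went from 1.98 to 2.63 TPM to 14.5 to 21 TPM, and FBN1, the fibrillin of elastic microfibrils, which went from 26.5 to 28.9 TPM to 90.4 to 103 TPM. LUM, a keratan sulfate proteoglycan, was at 496 to 706 TPM and then at 647 to 814 TPM, a change of 0.57 under the fold limit. Of 16 genes of matrix remodelling, 5 rose and 0 fell (median 0.70, or 0.48 without scaling), and edgeR and DESeq2 each called 1 lower. LOX, which crosslinks collagen and elastin, was at 12.7, 12.6, 14.1 and 12.8 TPM on day 8 and at 66.9, 86.1 and 87.8 TPM on day 16 (log2 change 2.74, SE 0.13). SERPINE2, an inhibitor of thrombin, rose by 1.55 on the log2 scale.

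At the fold limit, markers of stromal and of epicardial identity were called in both directions and those of smooth muscle only higher, on few calls per list. Of 10 tested genes of fibroblasts and mesenchyme, THY1, a surface glycoprotein, rose by 1.87, MEOX1, a homeobox factor, fell by 2.06 on the log2 scale, and the median was -0.39. The summed level of this list was 1420 to 1558 TPM on day 8 and 1648 to 1745 TPM on day 16. Of 12 genes of epicardium and mesothelium, 4 rose (2 with a pseudocount of 5) and 1 fell. WT1, the defining factor of the epicardium, was at 72.3 to 87 TPM and then at 65.2 to 98.8 TPM, with a change of 0.19 (adjusted p = 0.281), or -0.03 without scaling. ITLN1, a lectin of mesothelium, went from 0 to 0.629 TPM to 11.4 to 16.4 TPM, UPK3B, a mesothelial uroplakin, rose by 1.52, and LRRN4 fell by 1.18 on the log2 scale. Of 9 smooth muscle genes, SYNPO2 and ACTG2 rose and 0 fell (median 0.43). At the adjusted p alone, 5 of them were higher and 1 lower (20% and 20.9% of all tested genes). SYNPO2, an actin-bundling protein, was at 12.7, 13.7, 11.8 and 12 TPM on day 8 and at 125, 124 and 130 TPM on day 16, and ACTG2, enteric actin, rose from 26.2 to 38.3 TPM to 209 to 241 TPM. Of 15 endothelial markers only 6 were high enough to be tested, and TEK, an angiopoietin receptor, was called higher (1.38). PECAM1 and VWF, which define endothelium, stayed at or under 0.299 and 0.376 TPM in all 7 wells, and the part of stromal, epicardial or smooth muscle cell numbers in the rise of matrix genes was not tested.

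Retinoic acid is made from retinal by dehydrogenases and removed by CYP26 enzymes. Of 10 tested members of the retinoid pathway, 6 rose and 0 fell (median 1.10), but with a pseudocount of 5 in place of 1 only 2 were called. ALDH1A2, the main enzyme that makes retinoic acid in the embryo and also a marker of the epicardium, was at 0.71, 1.08, 0.972 and 0.718 TPM on day 8 and at 41.6, 32.1 and 27.1 TPM on day 16. No well overlapped, and the log2 change was 4.34 (SE 0.20, adjusted p = 8.83e-22, limma). DHRS3, which turns retinal back to retinol, went from 20.8 to 24.4 TPM to 99.1 to 118 TPM. CYP26B1, which degrades retinoic acid, rose by 1.70 but reached no more than 3.73 TPM. RBP4, the plasma carrier of retinol, was called at 1.64 and followed another course, from 0 to 0.639 TPM on day 8 to 8.8 to 12.5 TPM on day 10 and 1.67 to 5.01 TPM on day 16.

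In the IGF (insulin-like growth factor) system, 6 of 10 tested members rose and 0 fell, with a median of 1.16. They were the ligand IGF1 and 5 binding proteins. IGFBP5 was at 195, 156, 155 and 188 TPM on day 8 and at 845, 529 and 512 TPM on day 16 (log2 change 2.05, SE 0.17), and IGFBP2 went from 36.7 to 47 TPM to 119 to 141 TPM. IGF1 rose by 1.57 and reached 3.52 to 4.15 TPM. The receptors IGF1R and IGF2R changed by -0.18 and -0.63, under the fold limit. Of 9 complement genes, 4 rose and 0 fell. C3, the central component, was at 0.795 to 1.83 TPM and then at 27.1 to 44.6 TPM, and C7, of the membrane attack complex, went from 3.86 to 5.58 TPM to 15.1 to 17.9 TPM.

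No tested gene of either cell division list rose. Of 15 genes of DNA replication and S phase, 9 fell and 0 rose (median -1.19), and of 20 genes of G2 and mitosis, 11 fell and 0 rose (median -1.04). In deposited TPM without scaling, all 20 of the latter had day 16 wells below all day 8 wells, as did 36.6% of all tested genes. MKI67, the proliferation antigen, was at 92.8, 79.7, 80.4 and 81.1 TPM on day 8 and at 34.7, 27.4 and 26 TPM on day 16 (log2 change -1.26, SE 0.09, adjusted p = 3.72e-15, limma). Many members lay close to the fold limit, so the counts moved with the scaling: without it, 13 S phase and 18 mitotic genes were called lower. UHRF1, which maintains DNA methylation after replication, fell by 1.85 on the log2 scale, and MCM2 and MCM5, subunits of the replicative helicase, by 1.52 each. BIRC5, of the chromosomal passenger complex, and CENPF, a kinetochore protein, fell by 1.34 and 1.33. Among 10 CDK inhibitors and p53 targets, 2 rose: CDKN2B, an inhibitor of CDK4 and CDK6, went from 30.4 to 40.3 TPM to 159 to 175 TPM (log2 change 2.48, SE 0.18), and CDKN2A, its neighbour, stayed at or under 3.63 TPM.

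Promoters of mitotic genes share the CHR element (TTTGAA) and the CCAAT box, through which the DREAM and NF-Y complexes are known to act. Both were searched on both strands in the 250 bases before each RefSeq start. A CHR element was found in 9 of 16 mitotic promoters in the table, in 0 of 12 S phase promoters and in 9.56% of 12729 promoters of tested genes. A CCAAT box was found in 15 of the 16, in 8 of the 12 and in 34.2% of all. Sequences are shown for the 3 mitotic genes with the largest fall among those in the table that held both elements, which are in capitals (on the opposite strand the elements read TTCAAA and ATTGG). They are RefSeq sequences of GRCh38.p14: chr10:128126424-128126673 on the minus strand for MKI67, and chr16:23678639-23678888 and chr10:92592880-92593129 on the plus strand for PLK1 and KIF11. PLK1, a mitotic kinase, and KIF11, a spindle motor, each fell by 1.26 on the log2 scale. In MKI67 a CHR element and a CCAAT box overlap and form a single run of capitals.
MKI67: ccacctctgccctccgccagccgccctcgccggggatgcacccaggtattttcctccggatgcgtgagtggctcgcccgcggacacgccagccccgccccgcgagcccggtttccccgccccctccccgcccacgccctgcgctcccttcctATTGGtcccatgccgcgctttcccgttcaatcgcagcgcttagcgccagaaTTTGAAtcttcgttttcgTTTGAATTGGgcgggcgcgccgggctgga
PLK1: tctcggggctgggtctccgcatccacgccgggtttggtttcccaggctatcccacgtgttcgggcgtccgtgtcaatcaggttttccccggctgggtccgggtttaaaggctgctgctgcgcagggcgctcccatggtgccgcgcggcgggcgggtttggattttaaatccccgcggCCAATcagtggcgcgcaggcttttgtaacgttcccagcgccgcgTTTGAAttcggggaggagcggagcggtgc
KIF11: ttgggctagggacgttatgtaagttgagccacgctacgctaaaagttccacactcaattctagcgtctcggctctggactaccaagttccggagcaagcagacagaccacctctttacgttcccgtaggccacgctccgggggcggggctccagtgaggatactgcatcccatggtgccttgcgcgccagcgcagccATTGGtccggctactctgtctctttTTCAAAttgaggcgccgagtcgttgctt

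In these letters the CHR element nearest to the start ends 23 bases before it in MKI67 and PLK1 and 22 bases before it in KIF11. A match describes the letters only, and no binding was measured.

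Pluripotency genes that were still detected on day 8 also fell. Of 8 tested genes, 6 fell and 0 rose (median -1.10), led by LIN28A; with a pseudocount of 5 in place of 1, only 2 were called. DPPA4, a chromatin factor of pluripotent cells, went from 12.5 to 17 TPM to 3.46 to 5.3 TPM, and TDGF1, a Nodal co-receptor, from 23.9 to 32.8 TPM to 8.1 to 10.5 TPM. NANOG, a defining factor, was at or under 0.0964 TPM in all 7 wells.

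Endoderm and liver genes moved in both directions. Of 11 tested genes, 3 secreted proteins rose (ALB, AFP and APOA1) and 5 fell, among them the transcription factors FOXA1 and FOXA2. AFP, alpha-fetoprotein, was at 123, 204, 211 and 176 TPM on day 8, at 1880 to 2300 TPM on day 10, and at 392, 1112 and 840 TPM on day 16. All day 16 wells were above the day 8 wells and below the day 10 wells, and well 1 was the lowest. The log2 change from day 8 to day 16 was 2.25 (SE 0.33, adjusted p = 3.42e-07, limma). ALB, albumin, went from 2.01 to 4.38 TPM to 29.7 to 38.6 TPM on day 10 and 10.8 to 30.3 TPM on day 16. Unlike those of AFP, its day 10 and day 16 wells overlapped. APOA1 was called at 1.08 but lost the call without day 16 well 2 (0.73). FOXA1 fell from 15.5 to 27.4 TPM to 2.85 to 5.85 TPM and FOXA2 from 6.26 to 7.21 TPM to 0.303 to 2.07 TPM. TTR, the thyroid hormone carrier, went from 44.2 to 91 TPM to 91.6 to 138 TPM on day 10 and 19.4 to 30.4 TPM on day 16. The summed level of the list was 406 to 678 TPM on day 8, 2766 to 3388 TPM on day 10 and 594 to 1532 TPM on day 16. AHSG, a fetal plasma protein named above for its rise, was at 0.767 to 3.29 TPM on day 8, 58.6 to 81 TPM on day 10 and 30, 79.4 and 53.7 TPM on day 16; the part of liver-like cells in its rise was not tested. Only 3 genes of the list were called lower without day 16 well 1, day 8 well 2 or day 8 well 3, and 2 with a pseudocount of 5.

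**Figure D3:**
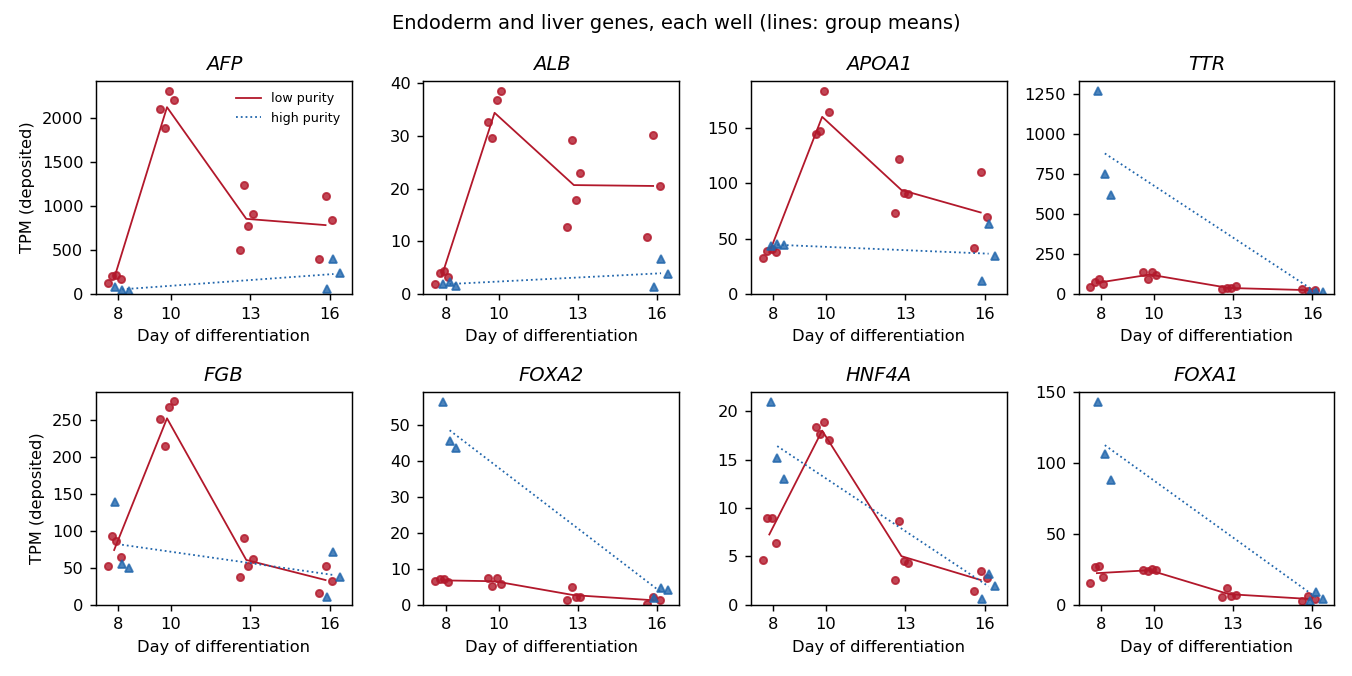
Deposited TPM of 8 endoderm and liver genes against day of differentiation in each low purity well (red circles) and each high purity well of days 8 and 16 (blue triangles); lines join group means, dotted for high purity. In low purity, group means of AFP and ALB are highest on day 10, when wells held 1880 to 2300 and 29.7 to 38.6 TPM. On day 16 the wells range from 392 to 1112 and from 10.8 to 30.3 TPM.

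Signalling genes moved in both directions. Of 21 genes of BMP and TGF-beta signalling, 4 rose and 1 fell. The fall was that of NOG, a BMP antagonist (-1.04), and its call was lost without day 16 well 1 (-0.81) or day 8 well 2 (-0.89) and with a pseudocount of 5 (-0.58). TGFBI, a matrix protein induced by TGF-beta, was at 74.4, 67.6, 66.4 and 74.4 TPM on day 8 and at 529, 601 and 591 TPM on day 16 (log2 change 3.23, SE 0.18). INHBA, the activin A subunit, went from 17.3 to 21.1 TPM to 106 to 148 TPM. Of 16 WNT genes, 3 rose, led by SFRP2, with WNT2B at 2.43 and DKK2, a secreted inhibitor, at 2.24, and 2 fell, namely LEF1, a transcription factor that mediates the response (by 1.23 on the log2 scale), and the ligand WNT2; edgeR and DESeq2 each called 4 lower. Of 19 genes of fatty acid use, 4 rose (1 with a pseudocount of 5), among them FABP3, a cytosolic carrier, from 26.3 to 43.9 TPM to 55.5 to 99.3 TPM. Of 19 tested genes of cholesterol synthesis and uptake, 0 rose and 0 fell by limma at the fold limit, with a median of -0.40. At the adjusted p alone, 14 were lower and 0 higher (20.9% and 20% of all tested genes). In deposited TPM without scaling, day 16 wells lay below all day 8 wells in 15 (36.6% of all). At the same fold limit edgeR also called 0. In the respiratory chain 1 of 18 genes was called, namely COX6A2, a muscle subunit of cytochrome oxidase (5.3, 0, 2.69 and 0 TPM on day 8 and 5.84, 13.9 and 5.84 TPM on day 16; not called by DESeq2), and in glycolysis and glucose uptake 1 of 21, the insulin-responsive transporter SLC2A4 (1.17). The wells of SLC2A4 overlapped, and its call was lost without day 16 well 2 (0.98), without scaling (0.98) and with a pseudocount of 5 (0.77), while 2 genes of the list were called without day 16 well 1.

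Few markers of further cell types were high enough to be tested. Of 13 neural and neural crest markers 6 were tested, of which STMN2, a neuronal microtubule regulator, rose and reached 2.4 to 7.46 TPM, and DCX and NEFL, also of neurons, fell from 2.51 to 4.08 TPM and 2.81 to 4.36 TPM to under 1 TPM. Of 12 cartilage and bone markers 6 were tested, and SPP1, a secreted phosphoprotein, went from 79.6 to 108 TPM to 11.8 to 13.8 TPM, while ALPL, alkaline phosphatase, fell by 1.71 on the log2 scale. Of 10 markers of blood and immune cells 2 were tested, of which 1 rose and 1 fell: CD68, of macrophage lysosomes, went from 2.66 to 6.27 TPM to 9.03 to 10.9 TPM, and HBE1, embryonic globin, from 0.504 to 3.16 TPM to 0 in all 3 day 16 wells. Neither was called with a pseudocount of 5, and STMN2, DCX, NEFL and ALPL lost their calls with it too. Among 16 stress and hypoxia genes 4 rose and 0 fell (1 fell without day 16 well 1): EGR1 and FOS, immediate early factors, by 1.65 and 1.38, and EGLN3 and NDRG1, targets of hypoxia signalling, by 1.31 and 1.07.

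Of the 3 steps from day 8 to day 16, the step from day 10 to day 13 had the most calls, except at a log2 limit of 2 (36, 30 and 6 calls in order). The steps share their middle wells, so they are given side by side. The first step is the shortest, and day 16 had 3 wells where the other days had 4. Genes were chosen on day 8 and day 16 wells, so genes expressed only on the days between were not tested. From day 8 to day 10, 168 genes rose (0.859%) and 57 fell (0.292%). From day 10 to day 13, 232 rose (1.19%) and 228 fell (1.17%), or 189 and 370 without scaling. From day 13 to day 16, 45 rose (0.23%) and 19 fell (0.0972%), or 32 and 40 without scaling. The named genes followed different courses, given here as log2 differences of the 3 steps in order. LIN28A fell in each step by the adjusted p (-0.98, -1.63 and -0.97), with only the middle one past the fold limit. MKI67 had -0.56, -0.81 and 0.10, the last with an adjusted p of 0.671. MYH6 fell in the first step (-1.03) and had -0.04 and -0.29 afterwards, whereas MYH7 was called only in the middle step (0.74, 1.77 and 0.99). MYL2 was called only in the last step (0.53, 0.31 and 2.52), and ALDH1A2 in the last 2 (0.53, 1.85 and 1.96). ALOX15 had 0.28, -2.10 and -0.95 and SLN -0.14, -1.91 and -0.80, each called only in the middle step. NQO1 had -2.08, -0.89 and 0.04, called only in the first step. By list, the median of S phase genes was -1.55 to -1.13 on day 13 and -1.34 to -1.00 on day 16, ranges that overlapped.

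**Figure D4:**
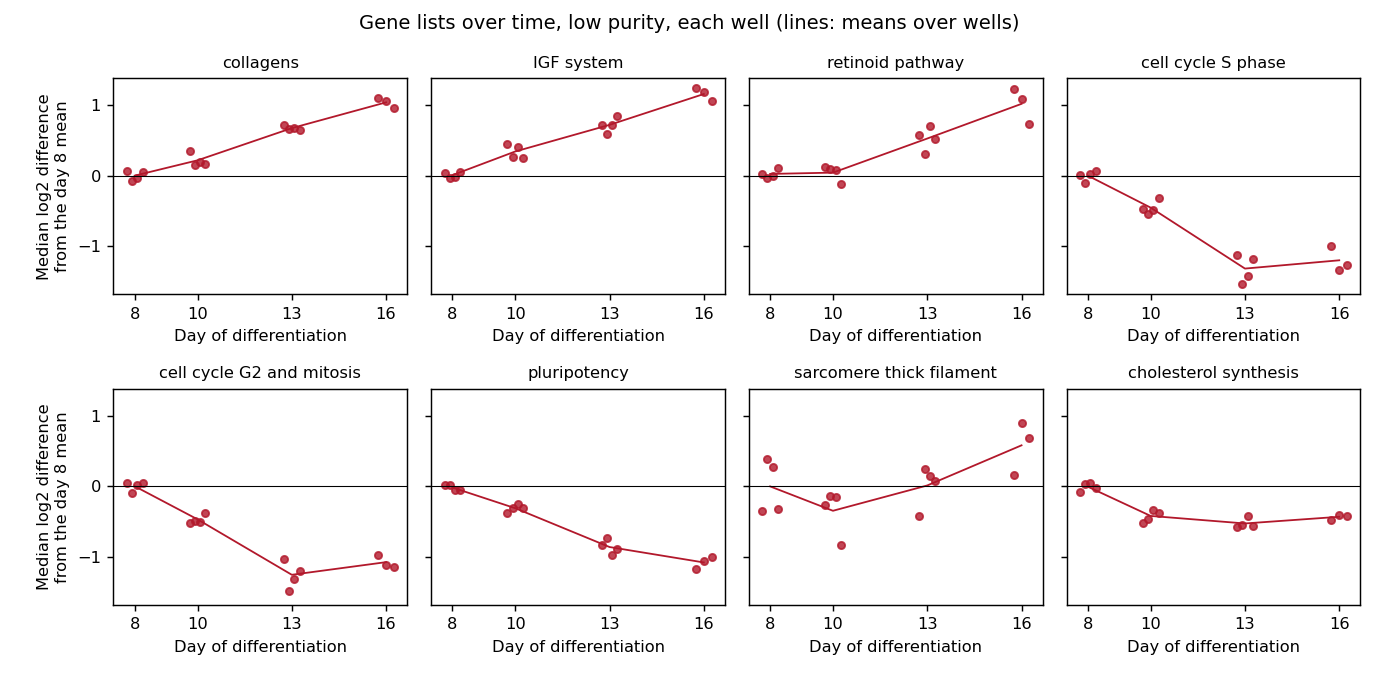
Median log2 difference from the day 8 mean over the tested genes of 8 lists, in each low purity well (circles) against day of differentiation; lines join means over wells. Means over wells of the cell cycle lists are lowest on day 13, those of collagens, the IGF system and the retinoid pathway are highest on day 16, and the thick filament median of day 16 well 1 is the lowest of its day.

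The change from day 8 to day 16 was then set against that of the high purity differentiation by a test of the difference between the changes. It was larger, or less negative, in low purity for 1080 genes (5.52%) and smaller for 1004 genes (5.14%). The low purity wells enter both this test and the comparison above. Genes were chosen on the low purity wells of days 8 and 16, so genes expressed only in high purity wells were not tested. NPY, neuropeptide Y, differed most: it rose in low purity from 27 to 50.3 TPM to 72.1 to 113 TPM, while its mean in high purity went from 552 to 4.04 TPM, a difference of 8.18. DLK1, an imprinted Notch ligand of immature cells, rose from 34.9 to 52.9 TPM to 251 to 272 TPM against means of 249 and 12.2 TPM in high purity (difference 6.87). CRHBP, TTR and DKK1 followed with differences of 4.72, 4.71 and 4.58, with low purity log2 changes of -0.09 and 0.31 (not called) for CRHBP and DKK1 and a fall of TTR, while the high purity means went from 55.7 to 0.948, from 877 to 11.8 and from 82.2 to 2.9 TPM. SFRP2 stayed at 0.563 and 0.404 TPM in high purity and differed by 5.44, ALDH1A2 at 1.25 and 0.931 TPM (4.49), and MGP at 0.402 and 0.29 TPM (4.12).

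In the opposite direction MOXD1, a monooxygenase of the dopamine hydroxylase family, went from 58.4 to 65.5 TPM to 22 to 34.9 TPM in low purity and from a mean of 6.92 to 44.9 TPM in high purity, a difference of -3.59. ALOX15 (-3.28), SLN (-2.64), KCNJ3 (-2.34) and MEOX1 (-2.28) fell in low purity from day 8 means of 76.6, 24.6, 73.3 and 14.9 TPM, while high purity means on these days were between 0.0941 TPM (MEOX1) and 5.35 TPM (SLN). FBXO40, a muscle ubiquitin ligase subunit, was at 4.4 to 8.8 and 3.56 to 7.26 TPM in low purity, while the high purity mean went from 10.3 to 60 TPM (-2.58). Among muscle genes MYH6 differed by -1.86 (adjusted p = 0.000204, limma), TNNI3 by 1.75 and MYL7 by 1.35. MYH7 differed by 0.07 (adjusted p = 0.922) and MYL2 by 0.33 (adjusted p = 0.624), neither with a direction that held under all alternatives, with high purity means of 75.8 and 712 TPM for MYH7. The differences of LIN28A (0.76) and MKI67 (0.56) stayed under the fold limit.

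By list, in favour of low purity means a change that was larger, or less negative, there, and in favour of high purity the reverse. Calls in favour of low purity took in 13 of 24 matrix glycoproteins and 9 of 11 endoderm and liver genes. They also took in 7 of 10 IGF genes and 6 of 10 retinoid genes, against 5.52% of all tested genes. In favour of high purity, 2, 0, 0 and 1 genes of these lists were called, in the same order, against 5.14% of all. In high purity the summed endoderm and liver level went from 1517 to 2662 TPM down to 166 to 713 TPM. Matrix glycoproteins went there from 5666 to 8172 TPM down to 2137 to 2764 TPM. In low purity the endoderm and liver sum was 406 to 678 TPM and then 594 to 1532 TPM (median log2 change -0.70). That of matrix glycoproteins was 5874 to 6629 TPM and then 7617 to 8874 TPM. In the cell cycle lists 1 of 15 S phase and 0 of 20 mitotic genes were called in either direction, and 4 of 16 collagens were called in favour of low purity. Of 12 calcium handling genes, 0 were called in favour of low purity and 4 in favour of high purity.

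**Figure D5:**
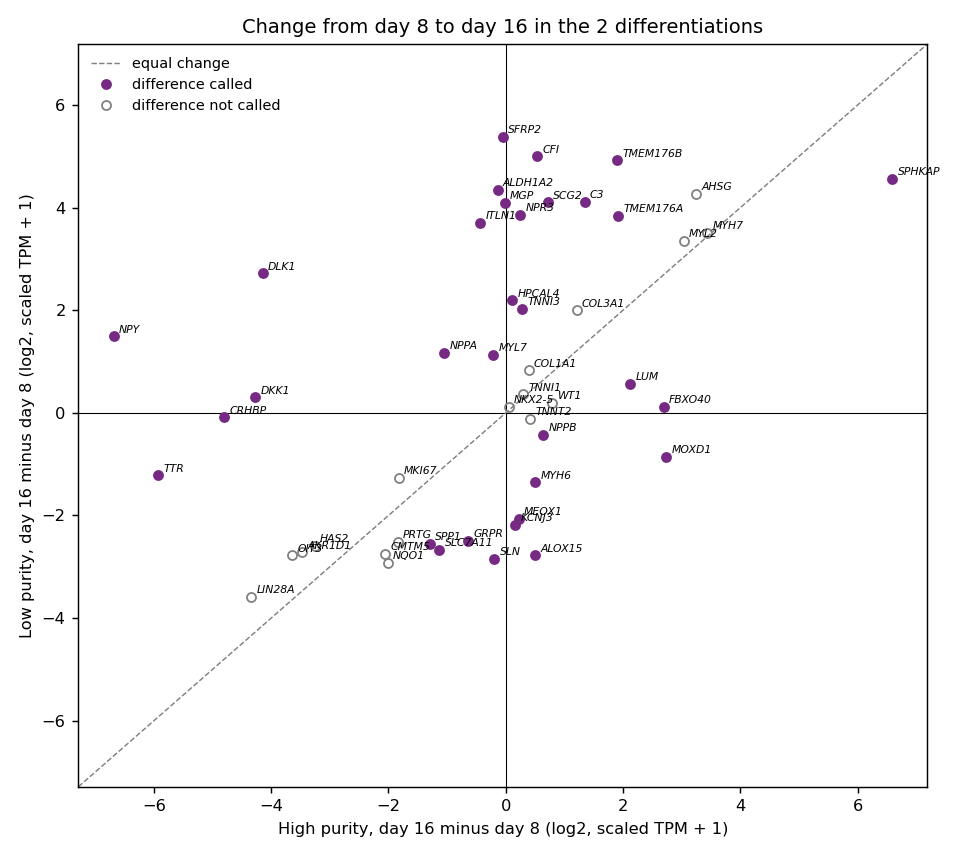
Change from day 8 to day 16 in low purity (vertical) against high purity (horizontal) for the 49 genes named by fixed choice or by size of change or difference, as log2(scaled TPM + 1); filled points have a called difference and the dashed line marks equal change. MYH7, MYL2 and LIN28A lie near the line, SFRP2, CFI and MGP far above it, and MOXD1 and ALOX15 below it.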

How the data were processed

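The authors deposited TPM for 56 multi-omic wells; per the submitters' processing notes STAR 2.5.3a, featureCounts 2.0.3 and hg38 were used, with roles not given there. The deposited count table of these wells was not tested: reads recovered from TPM matched the like-named count column for 0 of 56 wells. The deposited counts of the series' RNA-only libraries served to solve gene lengths. These lengths turned 100% of nonzero TPM of 37194 genes into whole reads (within 0.02 reads). TPM was scaled with TMM (edgeR 4.0.16), 1 was added, and log2 values of 19551 genes were fitted with limma 3.58.1 (limma-trend, R 4.3.3) on all 56 wells with 16 group means and 40 residual degrees of freedom, and p-values were adjusted by Benjamini-Hochberg over all 19551. The script was tested on simulated data. Named genes were the 12 protein-coding genes that rose and fell most with a mean of at least 10 TPM and no overlap of wells, up to 3 called genes per list and direction, 19 fixed genes, and 6 per direction of the difference. Members and lists were chosen with earlier results of these data known. Positions are from RefSeq GRCh38.p14. Motifs were searched as written in the report.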

Additional observations from a re-analysis of the deposited data

Results flagged for a closer look

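In the 4 low purity wells of day 8, the gap between an end well and its neighbour took up more of the whole range than Dixon's 95% limit allows in 3 of the 49 main named genes, where chance flags about 1 in 20. These were MYL2, at 3.02 TPM in well 2 and listed at 0 in the other 3, COL1A1, at 1854 TPM in the highest well against 1608 to 1611 TPM, and MKI67, at 92.8 TPM in well 1 against 79.7 to 81.1 TPM.

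The change from day 8 to day 16 differed between low and high purity in 2084 genes by limma, and in 32 of the 49 main named genes. The differences are log2 values, low minus high purity, and cannot be told apart from those of passage or differentiation. NPY had 8.18, DLK1 6.87, SFRP2 5.44, CRHBP 4.72, TTR 4.71 and DKK1 4.58. ALDH1A2 had 4.49, CFI 4.46, ITLN1 4.15, MGP 4.12, NPR3 3.61, SCG2 3.39, TMEM176B 3.02, C3 2.77 and TMEM176A 1.93. Among muscle genes and hormones NPPA had 2.22, TNNI3 1.75, MYL7 1.35, NPPB -1.07 and MYH6 -1.86, and HPCAL4, a neuronal calcium sensor, had 2.08. The NPPB call was lost without day 16 well 1 (-0.88), day 8 well 2 (-0.97) or day 8 well 3 (-1.01), by edgeR (-0.99), with a pseudocount of 0.1, with no filter and with the compared wells only. The calls of HPCAL4 (1.67 and 1.60) and SCG2 (2.01 and 1.88) were lost by edgeR and DESeq2, that of CFI by edgeR (3.06), and those of MYL7 and NPPA with a pseudocount of 0.1. On the side of high purity MOXD1 had -3.59, ALOX15 -3.28, SLN -2.64, FBXO40 -2.58, KCNJ3 -2.34, MEOX1 -2.28, SPHKAP -2.03, GRPR -1.85, LUM -1.55, SLC7A11 -1.54 and SPP1 -1.26.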

How the results depend on the processing

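The named genes whose direction reversed were called neither in the main fit nor in the setting that reversed them, though some were called in other settings. Without scaling NKX2-5 (0.12) had -0.10, WT1 -0.03 and FBXO40 -0.08. With wells left out TNNT2 ranged from -0.23 to 0.06, NKX2-5 from -0.06 to 0.43, CRHBP from -0.18 to 0.03 and FBXO40 from -0.04 to 0.41. For the difference from high purity these ranges were -0.19 to 0.41 for MYH7, -0.07 to 0.20 for TNNI1 and -0.11 to 0.39 for NKX2-5; with protein-coding TPM they had -0.17, -0.18 and -0.17, and with the replicate block -0.09, -0.07 and -0.07. AHSG had -1.16 with a pseudocount of 0.1, -2.61 by edgeR and -3.03 by DESeq2, OIT3 -0.06 and -0.11 and MYL2 -0.03 and -0.21 by these tools, and CMTM5 0.11 with a pseudocount of 5. Some differences gained a call: AHSG (1.57) and OIT3 (1.23) with a pseudocount of 5, and AHSG without day 16 well 1 (1.40). CMTM5 (-1.13) and NQO1 (-1.08) gained it with protein-coding TPM, and NQO1 with a pseudocount of 5 (-1.12). WT1 gained it with a pseudocount of 0.1 (-1.49), by edgeR (-1.69) and by DESeq2 (-1.76). From day 8 to day 16, MOXD1 was called without scaling (-1.07). Against 1599 calls from day 8 to day 16, 633 were made with a pseudocount of 5, 7989 with no fold limit and 253 with a log2 limit of 2, and leaving out each well in turn gave 1571 to 1738. The 2084 calls of the difference from high purity became 910, 6496 and 383 under these settings, 1310 with a filter at 5 TPM and 1962 to 2205 with wells left out. From day 8 to day 10 (225), there were 349 calls with a pseudocount of 0.1, 77 with 5, 145 with the 5 TPM filter, 398 by edgeR, 395 by DESeq2, 3313 with no fold limit and 36 with a log2 limit of 2. From day 10 to day 13 (460) the counts were 765 and 140 with these pseudocounts, 844 by edgeR, 824 by DESeq2, 5231 with no fold limit and 30 with a log2 limit of 2. From day 13 to day 16 (64) they were 23 with a pseudocount of 5, 31 with the compared wells only, 822 with no fold limit and 6 with a log2 limit of 2. The cause was not tested. With protein-coding TPM without TMM, 47.6% of calls from day 8 to day 16 were higher, against 55.0%; from day 10 to day 13 it was 39.2% against 50.4%, and for the difference 45.4% against 51.8%. Same-numbered wells of days 8 and 16 deviated together with correlations of only 0.102, 0.05 and 0.017, so the numbers were not taken to pair them. Day 8 wells 1 and 2 correlated best with the day 16 well of their own number, and day 8 well 3 with day 16 well 2 (0.025). With the replicate block, 1591 genes were called (878 higher), 1542 of them also without it, and 0 named genes changed call. Of 120 named genes, a pseudocount of 5 ended the call of 25, no scaling of 6, DESeq2 of 2 and edgeR of 1. Fold changes of genes near 1 TPM rest on few reads.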
